A study of Mus musculus with 12 samples.

Results

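Messenger RNA of 8 mouse genes was followed across 12 sequencing libraries of mpkCCDc11 cells, an immortalised epithelial line from the cortical part of the kidney collecting duct. The genes are Bnip3, Bnip3l, Fundc1, Pink1, Sqstm1, Optn, Fam162a and Higd1a. They were chosen by symbol as genes of mitophagy and related mitochondrial genes, with earlier results of these data known. All 8 were found among the 45777 genes of the table. All 8 also passed the filter on low counts, which 15932 genes passed. The study asked how TAZ, a transcriptional coactivator of the Hippo pathway encoded by Wwtr1, bears on aquaporin-2 in these cells.

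The groups were TAZ siRNA with dDAVP, TAZ siRNA with vehicle, control siRNA with dDAVP, and control siRNA with vehicle, with 3 libraries in each. dDAVP is a synthetic vasopressin analogue that acts on the V2 receptor, and it was given on the basolateral side at 1e-09 M. All cells were labelled wild type, were grown on porous filters for 3 days and then spent 24 h without serum or hormones. The protocol lists exposures of 15 min, 30 min and 24 h and does not say which of them these libraries had. An siRNA lowers a transcript without removing it. Whether the 3 libraries of a group were separate cultures is not given in the labels, and the p-values therefore rest on a spread that may be technical.

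Library totals lay between 45095331 and 61725339 counts. Wwtr1 averaged 114 ± 10.7 CPM with TAZ siRNA and dDAVP and 116 ± 2.51 CPM with TAZ siRNA and vehicle, against 166 ± 6.62 CPM with control siRNA and dDAVP and 181 ± 4.42 CPM with control siRNA and vehicle (SD, n = 3 each). CPM are counts scaled to 1 common library total. TAZ siRNA thus lowered Wwtr1 by 1.46-fold in dDAVP and by 1.55-fold in vehicle, and much of the transcript remained. Aqp2, the vasopressin-regulated water channel of principal cells, averaged 11.02 ± 2.39 CPM with TAZ siRNA and dDAVP, 0.0484 ± 0.0838 CPM with TAZ siRNA and vehicle, 34.7 ± 8.77 CPM with control siRNA and dDAVP, and 0.34 ± 0.00341 CPM with control siRNA and vehicle. Among 13 principal cell markers, Aqp4 and Elf5 were too low to be tested. Aqp3 (0.307 to 1.12 CPM) and Scnn1b (0.242 to 1.2 CPM) were tested but low. Of 21 markers of other cells, 9 stood at 0 in all 12 libraries (among them Slc26a4, Foxi1, Slc12a1, Kdr, Adgre1 and Col1a2). The summed level of the 21 was 134 to 146 CPM with TAZ siRNA and dDAVP, 149 to 163 CPM with TAZ siRNA and vehicle, 162 to 178 CPM with control siRNA and dDAVP, and 189 to 198 CPM with control siRNA and vehicle. Most of that sum was Lrp2, the endocytic receptor megalin, at 124 to 189 CPM. Col1a1 added 3.42 to 6.02 CPM and Cd68 2.47 to 4.31 CPM. The sums of the 21 were lower with TAZ siRNA in both treatments, and their part in the results that follow was not tested.

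Mitophagy is the removal of mitochondria by autophagy. BNIP3, its relative BNIP3L (also called NIX) and FUNDC1 sit in the outer mitochondrial membrane and bind the LC3 family proteins of the growing autophagosome directly. In the other branch, the kinase PINK1 accumulates on damaged mitochondria, where ubiquitin chains are then built, and the adaptors optineurin (Optn) and p62 (Sqstm1) link ubiquitin to LC3. Bnip3, Fam162a and Higd1a are textbook targets of the hypoxia-inducible factors (HIF), and Sqstm1 is a target of the antioxidant factor NRF2. FAM162A is a mitochondrial protein that promotes cell death in hypoxia, and HIGD1A is an inner membrane protein linked to the respiratory chain. The tubule is rich in mitochondria, and mitophagy is known to protect its cells in injury models.

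HIF binds DNA at a short core, which is marked in the promoters printed below. They include those of 3 of the 4 genes that fell with TAZ siRNA. The set of RefSeq promoters used here gave a window of 300 bases (250 before to 50 after the transcript start, build GRCm38.p6) for 7 of the 8 genes. That set held none for Bnip3l, the other gene that fell. Matches to ACGTG or GCGTG were sought on both strands and are in capitals (CACGT and CACGC are the same motifs on the other strand). The windows are those of Bnip3 (chr7:138909457-138909756), Fam162a (chr16:36071512-36071811), Higd1a (chr9:121857747-121858046) and, as one without a match, Sqstm1 (chr11:50210771-50211070), all on the minus strand and printed 5′ to 3′.
Bnip3: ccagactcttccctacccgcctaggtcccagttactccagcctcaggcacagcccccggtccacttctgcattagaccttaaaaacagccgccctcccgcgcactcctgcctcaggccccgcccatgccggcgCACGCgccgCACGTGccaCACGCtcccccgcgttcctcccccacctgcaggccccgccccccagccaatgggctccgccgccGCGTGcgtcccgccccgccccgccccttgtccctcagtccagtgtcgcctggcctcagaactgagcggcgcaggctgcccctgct
Fam162a: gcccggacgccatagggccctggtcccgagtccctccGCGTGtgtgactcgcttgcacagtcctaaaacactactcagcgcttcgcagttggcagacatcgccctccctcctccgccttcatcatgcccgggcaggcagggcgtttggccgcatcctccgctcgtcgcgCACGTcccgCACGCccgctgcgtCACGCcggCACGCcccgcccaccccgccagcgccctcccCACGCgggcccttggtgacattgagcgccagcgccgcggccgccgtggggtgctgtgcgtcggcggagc
Higd1a: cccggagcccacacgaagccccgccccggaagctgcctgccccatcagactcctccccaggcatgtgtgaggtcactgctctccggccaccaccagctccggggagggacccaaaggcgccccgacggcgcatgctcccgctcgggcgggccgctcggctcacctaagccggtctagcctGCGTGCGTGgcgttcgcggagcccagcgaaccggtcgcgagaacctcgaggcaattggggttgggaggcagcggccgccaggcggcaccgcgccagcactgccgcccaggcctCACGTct
Sqstm1: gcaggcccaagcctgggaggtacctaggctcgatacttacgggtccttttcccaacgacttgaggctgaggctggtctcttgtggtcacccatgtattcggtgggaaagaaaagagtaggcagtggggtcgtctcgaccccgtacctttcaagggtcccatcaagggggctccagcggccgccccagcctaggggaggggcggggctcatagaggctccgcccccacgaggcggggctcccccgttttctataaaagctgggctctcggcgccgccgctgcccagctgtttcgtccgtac

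The Fam162a window held 6 matches, the Bnip3 window 5, and those of Higd1a and Optn 3 each. Optn, whose window is not printed, was not called with TAZ siRNA, so matches were not limited to the genes that fell. Pink1 had 1, and Sqstm1 and Fundc1 had 0. In Bnip3, a pair of matches overlap in the palindrome CACGTG, which lies 108 bases before the start when counted from its first base. Among 32544 RefSeq promoter windows of the same length, 44.0% held at least 1 match, 8.99% at least 3, 1.67% at least 5 and 0.698% at least 6. GGAATG, the core bound by the TEAD partners of TAZ, occurred in none of the 7 windows and in 14.6% of all windows. TGACGTCA, the full cAMP response element, occurred in none of the 7 and in 1.8% of all. These are matches of letters within the windows alone. Sequence farther from the start was not searched, and no binding was measured. The Fundc1 window belongs to a transcript start that carried 1.08% of the gene's counts.

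With TAZ siRNA, 4 of the 8 genes were lower and the other 4 were not called. In vehicle, Bnip3, Bnip3l and Fam162a fell (3 of 8), where 6.3% of all genes tested were called, 3.19% higher and 3.11% lower. With dDAVP, Bnip3, Bnip3l, Fam162a and Higd1a fell (4 of 8), where 5.77% of all genes were called higher and 4.97% lower. Calls required an adjusted p below 0.05 in edgeR's quasi-likelihood test, with Benjamini-Hochberg adjustment over all 15932 genes. In those 4 genes each of the 6 TAZ siRNA libraries lay below each of the 6 control siRNA libraries, which held for 1.91% of all genes. dDAVP gave fewer calls: Sqstm1 and Fam162a rose with control siRNA (2 of 8, with 9.72% of all genes called higher and 9.48% lower), and Sqstm1 rose with TAZ siRNA (1 of 8, with 6.38% called higher and 4.41% lower). In bulk RNA, fewer cells with a transcript and less of it per cell cannot be told apart. The comparisons share libraries in pairs and are not independent of each other. The 8 genes were chosen with earlier results of these data known, so these counts are descriptions.

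**Figure D1:**
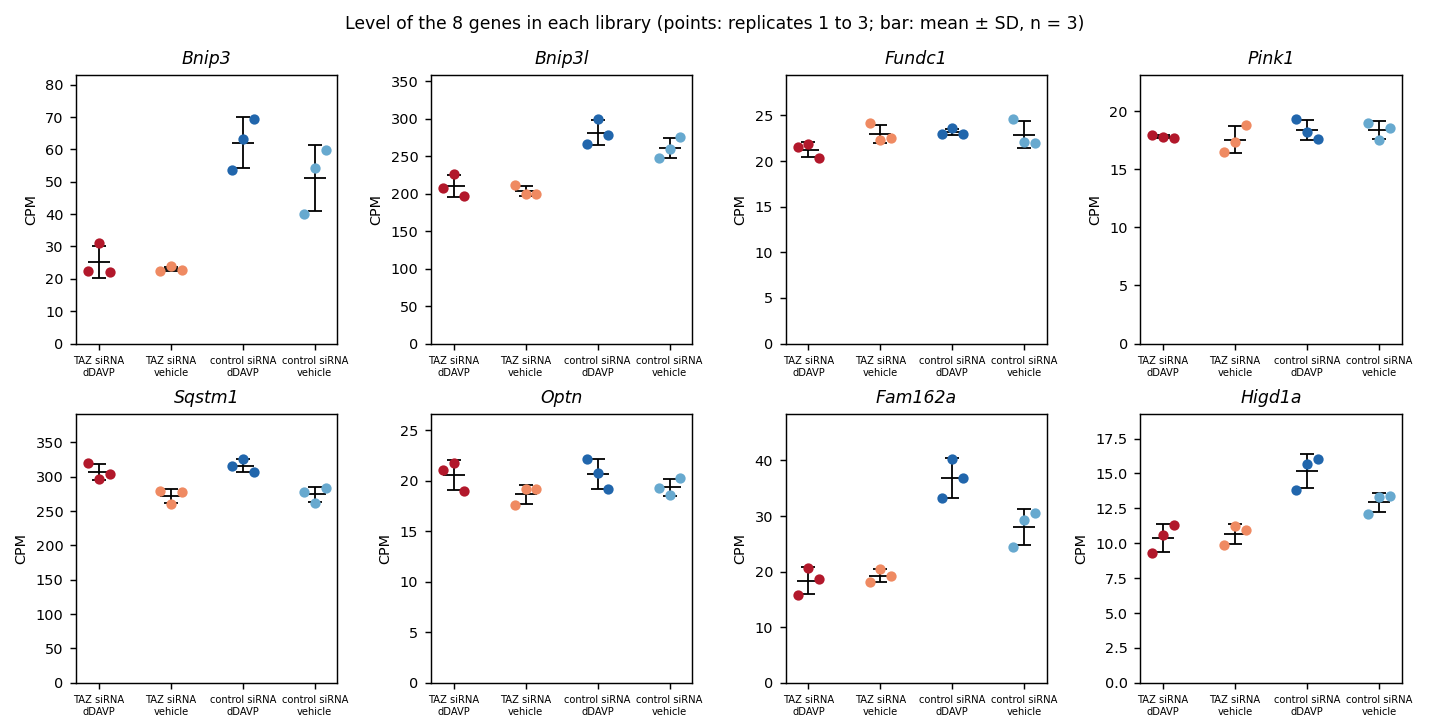
CPM (y axis, from 0) of the 8 genes in the 12 libraries, by group (x axis, TAZ siRNA groups left of control siRNA groups). Points are libraries, and bars the mean ± SD of 3. Bnip3, Bnip3l, Fam162a and Higd1a are lower in all 6 TAZ siRNA libraries than in all 6 control siRNA libraries, and Fundc1, Pink1, Sqstm1 and Optn overlap between the siRNAs.

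Bnip3 showed the largest fall of the 8. It had 22.5, 31.04 and 22.1 CPM with TAZ siRNA and dDAVP and 22.6, 23.9 and 22.7 CPM with TAZ siRNA and vehicle. With control siRNA it had 53.5, 63.3 and 69.3 CPM with dDAVP and 39.9, 54.2 and 59.7 CPM with vehicle. The lowest control siRNA library was above the highest TAZ siRNA library, whereas dDAVP and vehicle overlapped within each siRNA. TAZ siRNA lowered Bnip3 by 2.46-fold in dDAVP (log2 fold change -1.30 ± 0.17, adjusted p = 0.00134) and by 2.23-fold in vehicle (-1.15 ± 0.17, adjusted p = 0.00486, edgeR, SE). Ranked by log2 fold change from the lowest, it stood at place 68 in dDAVP and at place 91 in vehicle among the 15932 genes. Its change with dDAVP was not called (0.13 ± 0.18 with TAZ siRNA, adjusted p = 0.736, and 0.27 ± 0.17 with control siRNA, adjusted p = 0.319). The 95% intervals of these changes ran from -0.27 to 0.53 with TAZ siRNA and from -0.10 to 0.65 with control siRNA, so both held a moderate rise as well as 0. All counts were assigned to the transcript NM_009760 (chr7:138890836-138909506 in the deposited table).

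Bnip3l fell in the same comparisons by less. Its libraries had 207, 226 and 197 CPM with TAZ siRNA and dDAVP and 212, 199.7 and 199 CPM with TAZ siRNA and vehicle. With control siRNA they had 267, 299 and 278 CPM with dDAVP and 248, 259.9 and 275 CPM with vehicle. The 6 TAZ siRNA libraries were again all below the 6 control siRNA libraries, and the treatments overlapped within each siRNA. The log2 fold change with TAZ siRNA was -0.42 ± 0.05 in dDAVP (adjusted p = 5.83e-05) and -0.36 ± 0.05 in vehicle (adjusted p = 0.000622). The responses to dDAVP, 0.05 ± 0.05 with TAZ siRNA and 0.11 ± 0.05 with control siRNA, were not called (adjusted p = 0.649 with TAZ siRNA and 0.164 with control siRNA). Transcript NM_009761 on chromosome 14 held 99.1% of the Bnip3l counts.

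Per transcript length, Bnip3l was the more abundant of the related pair in every group. Bnip3 averaged 38.3 ± 8.13 TPM and Bnip3l 173 ± 14.0 TPM with TAZ siRNA and dDAVP. With control siRNA and dDAVP they averaged 92.0 ± 11.0 and 227 ± 9.79 TPM. The share of Bnip3 in the summed TPM of both was 18 ± 1.9% with TAZ siRNA and dDAVP and 17.3 ± 0.817% with TAZ siRNA and vehicle. It was 28.8 ± 2.32% with control siRNA and dDAVP and 26.4 ± 3.09% with control siRNA and vehicle (SD, n = 3 each). The highest share in a TAZ siRNA library was 20.2% and the lowest in a control siRNA library 22.9%, so the balance of the pair shifted towards Bnip3l with TAZ siRNA in every library.

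Fundc1, the third receptor, was not called in any comparison. It had 21.6, 21.9 and 20.4 CPM with TAZ siRNA and dDAVP and 24.1, 22.4 and 22.5 CPM with TAZ siRNA and vehicle. It had 23.0, 23.6 and 22.9 CPM with control siRNA and dDAVP and 24.6, 22.1 and 21.96 CPM with control siRNA and vehicle. Its 3 libraries with TAZ siRNA and dDAVP lay below those of the other groups by a small margin. Against control siRNA the log2 fold change was -0.13 ± 0.06 in dDAVP (adjusted p = 0.18) and 0.01 ± 0.06 in vehicle (adjusted p = 0.961). The 95% intervals, -0.24 to -0.01 in dDAVP and -0.11 to 0.13 in vehicle, do not reach the size of the fall of Bnip3.

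Of the PINK1 branch, neither the kinase nor its adaptors were called with TAZ siRNA. Pink1 had 17.9, 17.8 and 17.7 CPM with TAZ siRNA and dDAVP and 16.5, 17.3 and 18.8 CPM with TAZ siRNA and vehicle. It had 19.3, 18.2 and 17.6 CPM with control siRNA and dDAVP and 19.0, 17.5 and 18.6 CPM with control siRNA and vehicle. All 4 groups overlapped. The log2 fold change of Pink1 with TAZ siRNA was -0.04 in dDAVP (95% interval -0.17 to 0.08) and -0.07 in vehicle (-0.19 to 0.06).

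Sqstm1 responded to dDAVP and was not called with TAZ siRNA. It had 319, 296 and 304 CPM with TAZ siRNA and dDAVP, against 279, 261 and 277 CPM with TAZ siRNA and vehicle. With control siRNA it had 315, 326 and 307 CPM with dDAVP, against 277, 262 and 283 CPM with vehicle. Every dDAVP library was above every vehicle library, and the siRNAs overlapped in each treatment. dDAVP raised Sqstm1 by 0.17 ± 0.04 log2 units with TAZ siRNA (adjusted p = 0.00748) and by 0.20 ± 0.04 with control siRNA (adjusted p = 0.00109), which is 1.15-fold in the control siRNA cells. With TAZ siRNA the call was lost without replicate 2 of the vehicle group (0.13, adjusted p = 0.0746) and without replicate 1 of the dDAVP group (0.14, adjusted p = 0.0661). TAZ siRNA changed it by -0.04 in dDAVP (95% interval -0.13 to 0.04) and by -0.01 in vehicle (-0.09 to 0.07).

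Optn had 21.1, 21.8 and 19.0 CPM with TAZ siRNA and dDAVP and 17.6, 19.2 and 19.2 CPM with TAZ siRNA and vehicle. It had 22.2, 20.7 and 19.2 CPM with control siRNA and dDAVP and 19.3, 18.6 and 20.2 CPM with control siRNA and vehicle. dDAVP and vehicle overlapped within each siRNA, and so did the siRNAs within each treatment. Its response to dDAVP was 0.15 ± 0.07 with TAZ siRNA (adjusted p = 0.195) and 0.10 ± 0.07 with control siRNA (adjusted p = 0.362). TAZ siRNA changed it by -0.01 in dDAVP (95% interval -0.15 to 0.13) and by -0.05 in vehicle (-0.19 to 0.09).

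Fam162a had the second largest fall with TAZ siRNA and was also raised by dDAVP with control siRNA. It had 15.9, 20.6 and 18.7 CPM with TAZ siRNA and dDAVP and 18.1, 20.4 and 19.2 CPM with TAZ siRNA and vehicle. With control siRNA it had 33.2, 40.3 and 36.9 CPM with dDAVP, against 24.4, 29.3 and 30.5 CPM with vehicle. The control siRNA groups were apart from each other and from the TAZ siRNA groups, which overlapped. TAZ siRNA lowered Fam162a by 2.01-fold in dDAVP (log2 fold change -1.01 ± 0.10, adjusted p = 1.21e-05) and by 1.46-fold in vehicle (-0.54 ± 0.10, adjusted p = 0.00377). dDAVP changed it by -0.07 ± 0.10 with TAZ siRNA (adjusted p = 0.738) and raised it by 0.39 ± 0.09 with control siRNA (adjusted p = 0.00824). The difference of these responses was -0.46 ± 0.14 log2 units, with an unadjusted p of 0.00427 and an adjusted p of 0.327, so it was not called over all genes.

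Higd1a, the least abundant of the 8 in CPM, followed the same order of groups. It had 9.30, 10.6 and 11.3 CPM with TAZ siRNA and dDAVP and 9.88, 11.2 and 10.9 CPM with TAZ siRNA and vehicle. With control siRNA it had 13.8, 15.7 and 16.1 CPM with dDAVP, against 12.1, 13.3 and 13.4 CPM with vehicle. The TAZ siRNA groups overlapped each other, and the control siRNA groups lay above them with dDAVP above vehicle. TAZ siRNA lowered Higd1a in dDAVP (log2 fold change -0.55 ± 0.08, adjusted p = 0.000346). In vehicle its change of -0.27 ± 0.08 missed the threshold (adjusted p = 0.0608), and so did the change with dDAVP under control siRNA (0.23 ± 0.08, adjusted p = 0.0568). Both passed it with DESeq2 (adjusted p = 0.0269 for TAZ siRNA in vehicle and 0.0422 for dDAVP with control siRNA). dDAVP changed it by -0.04 ± 0.09 with TAZ siRNA, and the difference of the responses was -0.27 ± 0.12 (unadjusted p = 0.0327, adjusted p = 0.567).

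**Figure D2:**
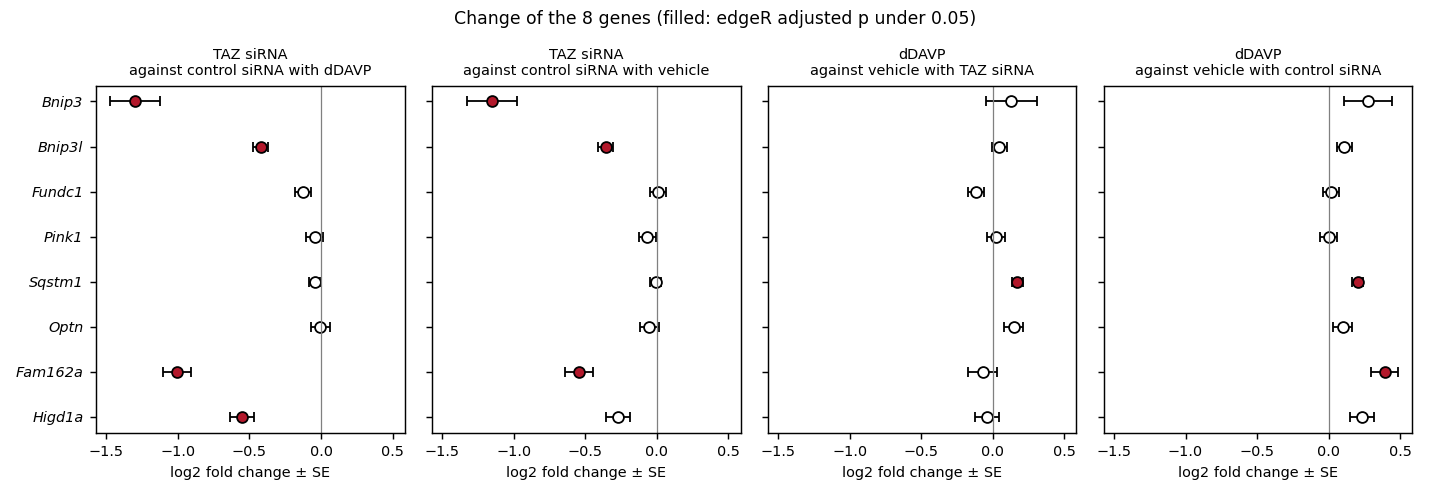
Log2 fold change ± SE (x axis) of each gene (rows) in the 4 comparisons (panels), with filled points for an edgeR adjusted p under 0.05. The left pair of panels shows the falls of Bnip3, Bnip3l, Fam162a and Higd1a with TAZ siRNA, and the right pair the dDAVP responses, of which those of Sqstm1 (both siRNAs) and Fam162a (control siRNA) were called.

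None of the 8 genes was called for the difference between the dDAVP responses (TAZ siRNA minus control siRNA) in edgeR, where 5 of 15932 genes (0.0314%) were called, 0.0126% higher and 0.0188% lower, and 1295 (8.13%) had an unadjusted p under 0.05. Fam162a and Higd1a were the 2 members among those 1295. DESeq2 called 87 genes and limma-voom 5, none of them a member. The intervals of the other 6 members all spanned 0, and that of Bnip3 was wide, at -0.69 to 0.40.

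The libraries of a group also differed from each other in a shared way. In both control siRNA groups, replicate 1 was the lowest of the 3 for Bnip3, Bnip3l, Fam162a and Higd1a. With TAZ siRNA and dDAVP, replicate 2 was the highest for Bnip3, Bnip3l and Fam162a. The summed level of 35 other HIF targets was also lowest in replicate 1 of both control siRNA groups, at 5423 CPM of up to 6129 CPM with dDAVP and at 4536 CPM of up to 5223 CPM with vehicle. The SD of Bnip3 was 0.705 CPM with TAZ siRNA and vehicle, against 10.2 CPM with control siRNA and vehicle.

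The 5 tested genes with the profile nearest to that of Bnip3 over the 12 libraries were Gm6532, Egln3, Grin1, Pdk1 and Ankrd37. Nearness was the root mean square difference of log2 CPM, each gene centred on its own mean, and was 0.127, 0.128, 0.18, 0.225 and 0.23 in that order. Gm6532 is a pseudogene that shares 339 of its 529 distinct stretches of 31 bases (64.1%) with protein-coding Bnip3 transcripts in GENCODE M21, so its counts and those of Bnip3 are not separate measurements. Egln3, a prolyl hydroxylase that marks HIF for degradation, averaged 11.98 ± 2.70 CPM with TAZ siRNA and dDAVP and 11.5 ± 0.959 CPM with TAZ siRNA and vehicle, against 32.7 ± 7.40 CPM with control siRNA and dDAVP and 26.7 ± 6.25 CPM with control siRNA and vehicle. Pdk1, the kinase that inhibits pyruvate dehydrogenase, averaged 80.6 ± 11.1 CPM with TAZ siRNA and dDAVP and 80.5 ± 4.69 CPM with TAZ siRNA and vehicle, against 152 ± 11.0 CPM with control siRNA and dDAVP and 140.2 ± 7.83 CPM with control siRNA and vehicle. Grin1 encodes a subunit of the NMDA receptor, and Ankrd37 an ankyrin repeat protein induced in hypoxia. Fam162a came at place 7 by this measure (0.261), Higd1a at place 99 (0.438) and Bnip3l at place 112 (0.444), and the other 4 members between places 3797 and 4116. These are descriptions over 12 libraries that share their groups.

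**Figure D3:**
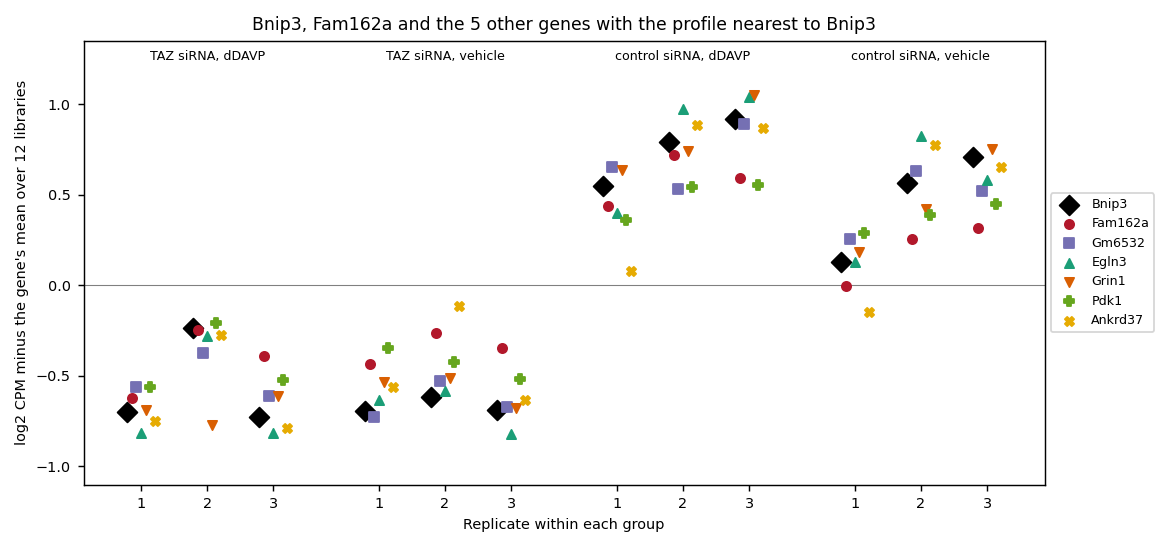
Log2 CPM minus the gene's mean over the 12 libraries (y axis) for Bnip3, Fam162a and the 5 genes nearest to Bnip3, by library (x axis, TAZ siRNA groups left of control siRNA groups). All 7 genes lie below 0 in the 6 TAZ siRNA libraries, and replicate 1 of control siRNA with vehicle is the lowest point of its group for each of them. The 5 genes were picked for nearness to Bnip3 in these libraries, so their likeness to it largely follows from that choice.

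Copies of Bnip3 elsewhere in the genome were checked for the same reason. The table lists 4 pseudogenes that share at least 50 such stretches with Bnip3 transcripts (Gm6532, Gm16439, Gm9419 and Gm14506), and their summed counts came to 6.56% of the Bnip3 counts. With these counts added to Bnip3, its log2 fold change with TAZ siRNA was -1.29 in dDAVP (adjusted p = 0.00116) and -1.13 in vehicle (adjusted p = 0.00459). Bnip3l has a processed copy on chromosome 12, Bnip3l-ps, of whose stretches 82.9% occur in Bnip3l protein-coding transcripts. Bnip3l-ps was listed as lower too (-0.48 ± 0.09 in dDAVP, adjusted p = 0.0028, and -0.35 ± 0.09 in vehicle, adjusted p = 0.036), a value that cannot be told apart from that of Bnip3l. The widest sharing of Bnip3 was with the long noncoding RNA AC160336.1 (1053 of its 2255 stretches, 46.7%), whose counts were not analysed here and were not among those added to Bnip3. Higd1a shared stretches with the processed pseudogenes Gm9790 (6.18% of those of Higd1a) and Gm14925 (2.68%), whose counts were not added to it. Stretches were also shared with the antisense genes Gm45507 (18.4% of those of Bnip3) and Gm47112 (20.6% of those of Higd1a), with Mrnip (16.3% of those of Sqstm1) and with Wdr5b (15.7% of those of Fam162a). Whether counting used the strand is not stated, so reads in these stretches cannot be told apart.

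The fall of Bnip3, Fam162a and Higd1a with TAZ siRNA was shared by most other HIF targets. Of 35 textbook targets other than the members, 32 were tested. This list was chosen with earlier results of these data known, so its counts are not an independent comparison. With TAZ siRNA, 25 fell in dDAVP (median log2 fold change -0.56, against 0.00 over all genes tested), and 24 fell and 1 rose in vehicle (median -0.41, against 0.00). Among all genes tested, 4.97% were called lower in dDAVP, and 3.11% lower and 3.19% higher in vehicle. Egln3 fell by 1.45 ± 0.24 in dDAVP and by 1.21 ± 0.24 in vehicle on the log2 scale, Ankrd37 by 1.25 ± 0.27 in dDAVP, and Pdk1 by 0.80 ± 0.08 in vehicle. Egln3, Ankrd37 and Pdk1 were also picked above as nearest to Bnip3 in the same libraries. The one that rose in vehicle was Car12, a membrane carbonic anhydrase (0.30 ± 0.07). With dDAVP, 6 of the 32 rose with TAZ siRNA and 13 rose with control siRNA. The share called higher over all genes was 6.38% with TAZ siRNA and 9.72% with control siRNA. Ndrg1, a stress-induced protein, rose by 0.69 ± 0.06 with TAZ siRNA and by 0.68 ± 0.06 with control siRNA, and Ldha, lactate dehydrogenase, by 0.33 ± 0.06 with TAZ siRNA and by 0.59 ± 0.06 with control siRNA.

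Transcripts of the HIF subunits themselves (Hif1a, Epas1, Hif3a and Arnt) were not called with TAZ siRNA. Hif1a averaged 374 ± 18.1 CPM with TAZ siRNA and dDAVP and 359 ± 30.2 CPM with TAZ siRNA and vehicle, against 404 ± 10.3 CPM with control siRNA and dDAVP and 400.0 ± 14.3 CPM with control siRNA and vehicle. The log2 fold change with TAZ siRNA was -0.11 ± 0.05 in dDAVP (adjusted p = 0.17) and -0.16 ± 0.05 in vehicle (adjusted p = 0.0739). The activity of HIF is set mainly at the protein level, which was not measured. Foxo3, a factor known to induce Bnip3 in wasting muscle, changed by 0.06 ± 0.04 in dDAVP and by -0.08 ± 0.04 in vehicle and was not called (adjusted p = 0.429 in dDAVP and 0.298 in vehicle).

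Few other genes of the mitophagy and autophagy machinery were called with TAZ siRNA. Of 54 other genes of the machinery, all tested, TAZ siRNA raised 2 and lowered 3 in dDAVP, and raised 1 and lowered 1 in vehicle. The share over all genes tested was 5.77% higher and 4.97% lower in dDAVP, and 3.19% higher and 3.11% lower in vehicle. The median log2 fold change was -0.002 in dDAVP and -0.03 in vehicle, against 0.00 over all genes tested in each. Of the 54, 29 lay below 0 in dDAVP and 37 in vehicle, called or not. Atg2a, a lipid transfer protein of the growing autophagosome, rose by 0.20 ± 0.03 in dDAVP and by 0.16 ± 0.03 in vehicle, and Ulk1, the initiating kinase, by 0.14 ± 0.03 in dDAVP. Pptc7, a mitochondrial phosphatase that restrains BNIP3 and NIX, fell by 0.14 ± 0.04 in dDAVP, and so did the adaptor gene Tax1bp1 (-0.13 ± 0.04). Nbr1, an autophagy adaptor related to p62, fell by 0.13 ± 0.03 in vehicle. Each of these changes was small beside that of Bnip3.

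With dDAVP, 6 of these 54 genes rose with TAZ siRNA, and 4 rose and 1 fell with control siRNA. Over all genes tested, 6.38% were called higher and 4.41% lower with TAZ siRNA, and 9.72% higher and 9.48% lower with control siRNA, so the list did not exceed the whole table with control siRNA. Its median was 0.03 with TAZ siRNA and 0.02 with control siRNA. Pik3c3, the class III phosphatidylinositol 3-kinase that starts autophagosome formation, rose the most, by 0.66 ± 0.04 with TAZ siRNA and by 0.64 ± 0.04 with control siRNA. It averaged 368 ± 15.9 CPM with TAZ siRNA and dDAVP, against 233 ± 9.68 CPM with TAZ siRNA and vehicle. With control siRNA it averaged 357 ± 11.4 CPM with dDAVP, against 228 ± 2.83 CPM with vehicle. Pptc7 rose by 0.31 ± 0.04 with TAZ siRNA and by 0.35 ± 0.04 with control siRNA. The one that fell was Ulk2 with control siRNA (-0.23 ± 0.06).

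Most other targets of NRF2 rose with dDAVP, as Sqstm1 did. Of 24 such genes, 16 rose with TAZ siRNA (median 0.25) and 21 rose with control siRNA (median 0.34). This list too was chosen with earlier results of these data known. Among all genes tested, 6.38% were called higher with TAZ siRNA and 9.72% with control siRNA. Gsta4, a glutathione transferase, rose by 0.73 ± 0.11 with TAZ siRNA and by 1.17 ± 0.11 with control siRNA, and Srxn1, sulfiredoxin, by 0.61 ± 0.05 with TAZ siRNA and by 0.72 ± 0.05 with control siRNA. Nfe2l2, which encodes NRF2, rose by 0.15 ± 0.04 with TAZ siRNA (adjusted p = 0.0156) and by 0.20 ± 0.04 with control siRNA (adjusted p = 0.00121). Keap1, which encodes its inhibitor, was not called (0.03 ± 0.03 with TAZ siRNA, adjusted p = 0.617, and 0.07 ± 0.03 with control siRNA, adjusted p = 0.138). TAZ siRNA called few of the 24, with 1 higher and 2 lower in dDAVP and 3 higher and 1 lower in vehicle. Among all genes tested, 5.77% were called higher and 4.97% lower in dDAVP, and 3.19% higher and 3.11% lower in vehicle. Nqo1, a quinone reductase, rose by 0.26 ± 0.07 in dDAVP and by 0.46 ± 0.07 in vehicle, and Gsta4 fell by 0.62 ± 0.10 in dDAVP. Nfe2l2 itself fell with TAZ siRNA in dDAVP (-0.12 ± 0.04, edgeR adjusted p = 0.047). In vehicle it was not called (-0.08 ± 0.04, edgeR adjusted p = 0.286).

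Other mitochondrial and lysosomal lists moved little with TAZ siRNA. The share called over all genes was 5.77% higher and 4.97% lower in dDAVP, and 3.19% higher and 3.11% lower in vehicle. Of 11 genes of mitochondrial fission and fusion, the one called was Inf2, an actin-nucleating formin, which rose (0.24 ± 0.04 in dDAVP and 0.27 ± 0.04 in vehicle). Of 26 genes of mitochondrial proteins and their biogenesis, Polrmt, the mitochondrial RNA polymerase, rose in dDAVP (0.17 ± 0.04) and the chaperone gene Hspd1 fell in dDAVP (-0.10 ± 0.03). The medians of the 26 were -0.02 in dDAVP and 0.03 in vehicle. Of 30 lysosomal genes tested, Scarb2 (-0.24 ± 0.06) and Atp6v1a (-0.11 ± 0.03) fell in dDAVP, and Tpp1 (-0.12 ± 0.03) fell in vehicle. Of 14 BCL2 family genes tested, the family to which BNIP3 is related, Bmf fell (-0.30 ± 0.04 in dDAVP and -0.40 ± 0.04 in vehicle) and Bad rose (0.22 ± 0.05 in dDAVP and 0.24 ± 0.05 in vehicle), both of them promoters of cell death. Bid, another of these, rose in vehicle (0.29 ± 0.05).

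**Figure D4:**
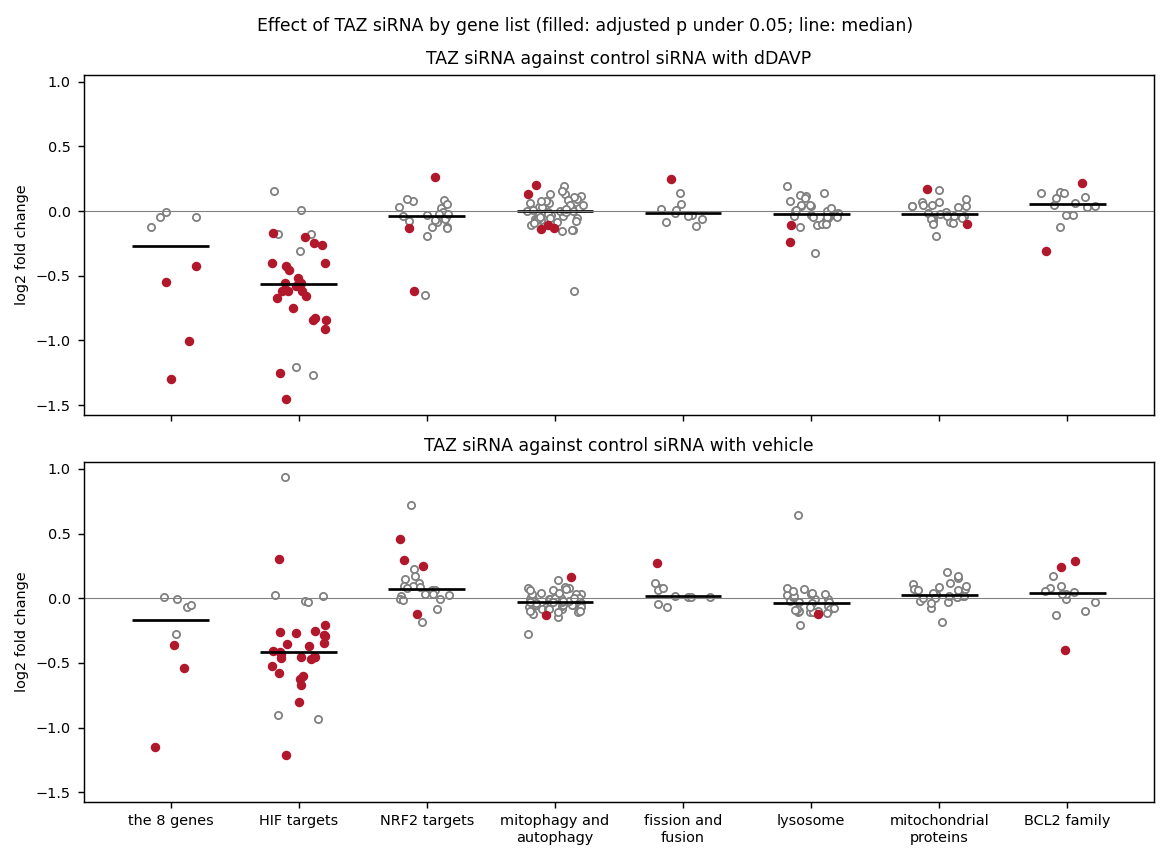
Log2 fold change with TAZ siRNA (y axis) of each tested gene by list (x axis), in dDAVP (top) and vehicle (bottom), with filled points for an adjusted p under 0.05 and a line at the median. The HIF targets lie mostly below 0, with medians of -0.56 in dDAVP and -0.41 in vehicle, and the other lists of genes lie around 0.

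dDAVP called some members of these lists as well, to be read against the 6.38% of all genes called higher and 4.41% lower with TAZ siRNA and the 9.72% higher and 9.48% lower with control siRNA. The lysosomal median was 0.08 with TAZ siRNA and 0.06 with control siRNA, the mitochondrial median -0.01 with TAZ siRNA and 0.06 with control siRNA, and the BCL2 family median 0.01 with TAZ siRNA and -0.01 with control siRNA. Of 30 lysosomal genes, 7 rose and 1 fell with TAZ siRNA, and 6 rose and 1 fell with control siRNA. Scarb2, a lysosomal membrane protein, rose by 0.47 ± 0.07 with TAZ siRNA and by 0.50 ± 0.06 with control siRNA, and Ctsl, a lysosomal protease, fell by 0.21 ± 0.05 with TAZ siRNA and by 0.15 ± 0.05 with control siRNA. Of 26 mitochondrial genes, 2 rose with TAZ siRNA, and 7 rose and 1 fell with control siRNA. Cisd1, an outer membrane iron-sulphur protein, rose by 0.23 ± 0.07 with TAZ siRNA and by 0.38 ± 0.07 with control siRNA. Ppargc1a, the coactivator of mitochondrial biogenesis, fell by 0.55 ± 0.12 with control siRNA. Of 14 BCL2 family genes, 1 rose and 2 fell with TAZ siRNA, and 2 rose and 2 fell with control siRNA. Bmf rose (0.27 ± 0.04 with TAZ siRNA and 0.17 ± 0.04 with control siRNA), and Bax rose with control siRNA (0.26 ± 0.07). Pmaip1 (-0.38 ± 0.08 with TAZ siRNA and -0.38 ± 0.07 with control siRNA) and Bcl2 (-0.21 ± 0.06 with TAZ siRNA and -0.23 ± 0.06 with control siRNA) fell. Pmaip1 encodes NOXA, which promotes cell death, and Bcl2 a protein that restrains it.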

How the data were processed

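RNA of 12 libraries was measured by sequencing, and the members and gene lists were chosen with earlier results of these data known. Per the submitters' processing notes, Bowtie 0.12.2 and the builds mm8 and mm10 were used, with no role given. No counting tool is named in the labels or headers. Per the labels' protocols, a stranded TruSeq mRNA kit and another TruSeq kit were named. The authors deposited estimated counts per gene and transcript, not normalised, per the file headers. For transcript counts of 2 to 20, 100% equalled the product of the authors' deposited FPKM, transcript length and a library factor rounded up (within 0.05), and 14.5% were whole before it, so they are rounded estimates. The deposited TPM values of the authors were used only to compare levels between genes. Values in 12 further per-sample columns were left out.

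The counts went into edgeR 4.0.16 under R 4.3.3 (TMM factors 0.988 to 1.01, filterByExpr with a minimum count of 10, 1 mean per group over all 12 libraries, robust quasi-likelihood F test, Benjamini-Hochberg adjustment over 15932 genes, called under 0.05). The biological coefficient of variation was 5.11%. Standard errors and 95% intervals came from each fold change with its F value. A count of 3 in 1 library equals 0.0486 to 0.0665 CPM, and limits from counts cover counting error only. Within groups, every pair of libraries differed by more than sampling noise (chi-square over its degrees of freedom 4.25 to 13.5). The code was tested on simulated data. Alternatives were RLE factors, DESeq2 1.42.0, limma-voom (limma 3.58.1), no filter, only the compared groups, the replicate number as a block, and each library left out. Adding the counts of copies to Bnip3 or Bnip3l was chosen after seeing the data. Named genes were the 8 members, Wwtr1, Aqp2, Avpr2, Hif1a, Foxo3, Nfe2l2 and Keap1, up to 2 called genes with the largest rise and 2 with the largest fall per list and comparison, and the 5 genes nearest to Bnip3. Not all genes named by that rule are printed, and some items are not reported here. Names and promoters come from RefSeq (GRCm38.p6) and shared stretches from GENCODE M21.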

Additional observations from a re-analysis of the deposited data

How the results depend on the processing

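Of 792 recomputed changes of the 8 genes, 781 kept their direction where called and their side of the threshold, 9 newly passed it, 2 no longer did, and 0 reversed while called. The 9 all concern Higd1a: TAZ siRNA in vehicle passed with DESeq2 (adjusted p = 0.0269), with the replicate block (0.018), and without replicate 1 of control siRNA with dDAVP (0.0489) or of TAZ siRNA with dDAVP (0.0413), and dDAVP with control siRNA passed with DESeq2 (0.0422), the compared groups only (0.0296), the replicate block (0.0169), and without the same libraries (0.031 and 0.0442). The calls of Bnip3, Bnip3l and Fam162a with TAZ siRNA held in all 20 alternatives of each treatment, with adjusted p of Bnip3 up to 0.00836 in dDAVP and up to 0.0278 in vehicle. The count of called members for dDAVP with TAZ siRNA ran from 0 to 1 when 1 library was left out, reaching 0 without replicate 2 of TAZ siRNA with vehicle or replicate 1 of TAZ siRNA with dDAVP. Genes called in the whole table with 1 library left out ran from 1118 to 1752 for dDAVP with TAZ siRNA (lowest without replicate 2 of TAZ siRNA with vehicle), from 1049 to 1912 for TAZ siRNA in dDAVP (1049 to 1114 without replicate 1 or 3 of TAZ siRNA with dDAVP or replicate 2 or 3 of control siRNA with dDAVP), and from 410 to 1435 for TAZ siRNA in vehicle (410 to 578 without replicate 2 or 3 of TAZ siRNA with vehicle or replicate 1 or 3 of control siRNA with vehicle). For the difference of the dDAVP responses, where 5 genes were called, they ran from 3 to 16 (16 without replicate 1 of TAZ siRNA with vehicle, 10 without replicate 2 of TAZ siRNA with dDAVP or replicate 1 of either control siRNA group, and 3 without replicate 1 of TAZ siRNA with dDAVP or replicate 3 of either control siRNA group), and DESeq2 called 87, and edgeR without the low-count filter called 12. Fewer samples enter a fit that leaves out a library, and the cause of the other moves was not tested. The replicate numbers gave no clear pairing of the libraries, and whether they mark one was not settled. Deviations of same-numbered libraries correlated at -0.043 to 0.0799, and 7 of 12 libraries correlated best with their own number. Replicate 1 was the lowest library of every group for Fam162a and Higd1a. With the replicate block, 4 members were called with TAZ siRNA in each treatment and 3 with dDAVP under control siRNA, and the whole table gave 968 calls for TAZ siRNA in vehicle against 1004 without it. For TAZ siRNA in vehicle, the block gave an edgeR adjusted p of 8.38e-05 for Fam162a and 0.000651 for Bnip3. For the difference of the dDAVP responses it gave 0.0703 for Fam162a, which was still not called.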
